A study of Homo sapiens with 9 samples.

Results

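Cisplatin-death vesicles were compared with saline in A549 cells, a human lung adenocarcinoma line, across all genes that the libraries detected. The comparison holds 6 of the 9 libraries of the series. The 3 libraries called DDP_apoEV came from cells exposed to apoptotic extracellular vesicles (apoEVs) produced by cisplatin-induced death, and the 3 called control from cells given phosphate-buffered saline (PBS). Both groups were harvested after 96 h and were chosen by their treatment labels, with no measured value used. The other 3 libraries came from cells given vesicles of staurosporine-induced death (STS_apoEV), and they enter only where the 2 vesicle types are compared directly. All 9 were grown in the same medium. The labels name neither the cells that shed the vesicles nor the vesicle dose, and no sample of cisplatin alone was analysed here. Effects of the vesicles themselves and of drug carried with them therefore cannot be told apart. Nothing in the labels says that a group's libraries are from separate cultures. Each p-value therefore reflects only how far these samples spread, and that spread may be technical.

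Apoptotic vesicles are membrane-bound packages that form as a dying cell breaks up, and they carry its proteins, lipids, RNA and DNA to cells that engulf them. Cisplatin crosslinks DNA and is a standard drug against lung cancer, so surviving tumour cells can meet the remains of dying neighbours. A549 cells resemble the lung's secretory epithelium in part and have lost KEAP1 function, which keeps the antioxidant factor NRF2 active.

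The control libraries held 14356195 to 15492993 counts and the DDP_apoEV libraries 15949255 to 16526399. Mitochondrial transcripts made up 11.4% to 12.5% of control counts and 12.1% to 13.1% of DDP_apoEV counts. As in A549 cells generally, CDKN2A and CDKN2B of the region 9p21 had 0 counts in all 6 libraries, and MTAP, of the same region, had 8 to 23 counts. The 10 epithelial markers summed to 12000 to 13000 CPM in control and 7420 to 8040 CPM with DDP_apoEV, mostly through KRT8 and KRT18. In these marker sums CPM are counts scaled to each library's total count, and elsewhere to its effective total. Markers of 4 other lineages stayed low in both groups. The 8 fibroblast markers summed to 3.20 to 3.61 CPM in control and 3.39 to 3.64 CPM with DDP_apoEV, with none at 0 throughout. The 10 leukocyte markers reached 8.71 to 12.9 and 11.4 to 11.6 CPM, with PTPRC, CD2 and MS4A1 at 0 in all 6 libraries. Endothelial markers, 7 in number, summed to 2.88 to 3.97 CPM in control and 2.76 to 3.39 CPM with DDP_apoEV, with TEK at 0. The 7 erythroid and platelet markers stayed at or under 0.309 CPM in each library, with HBA2 at 0. The 8 hepatocyte markers summed to 38.5 to 40.5 CPM in control and 11.4 to 15.5 CPM with DDP_apoEV, nearly all of it FGL1, and ALB had at most 6 counts in any of the 6 libraries. Markers of alveolar type 2 cells, 8 in number, gave 25.8 to 29.3 CPM in control and 19.1 to 24.1 CPM with DDP_apoEV, mostly ABCA3, with SFTPA1 at 0. The 7 melanocyte and neural markers, mostly MBP, gave 70.9 to 74.0 and 79.3 to 93.5 CPM, with TYR and STMN2 at 0. The part of such cell types in the results was not tested, and in these bulk samples fewer cells of a kind and less RNA per cell cannot be told apart.

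The response was broad and mostly shallow. Of 16947 genes tested, 2623 (15.5%) were called changed at an adjusted p under 0.05, of which 1213 (7.16% of those tested) were higher and 1410 (8.32%) lower with DDP_apoEV. The median log2 fold change of all tested genes was −0.003. Among called genes the median fold was 1.34 for the higher and 1.48 for the lower ones. Of all calls 24% were under 1.25-fold and 34.9% between 1.25-fold and 1.5-fold, and only 123 genes changed 4-fold or more, 36 higher and 87 lower. The share called higher was 1.7% in the least abundant sixth of the genes and 14.8% in the most abundant, while the share called lower went from 2.6% in the least abundant to 10.7%. The precision of a change depends on abundance, so these shares describe what could be called as well as what moved. Protein-coding genes were called in 18.4% of 12810 cases, long intergenic non-coding RNAs in 10.0% of 730 (24 higher, 49 lower), antisense genes in 4.7% of 1033 and processed pseudogenes in 4.1% of 511. When counts of the same depth were simulated, the test recovered 50 of the 100 genes given a 1.5-fold change and 82 of the 100 given a 2-fold change, with 9.59% of its calls false, so single small changes are uncertain. The changed genes were drawn from those with a mean CPM of at least 1, so recovery of rarer genes was not measured. No other gene was changed there, and the STS_apoEV libraries were given no change. Many more genes were called in the real data, so these shares need not hold for them.

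**Figure D1:**
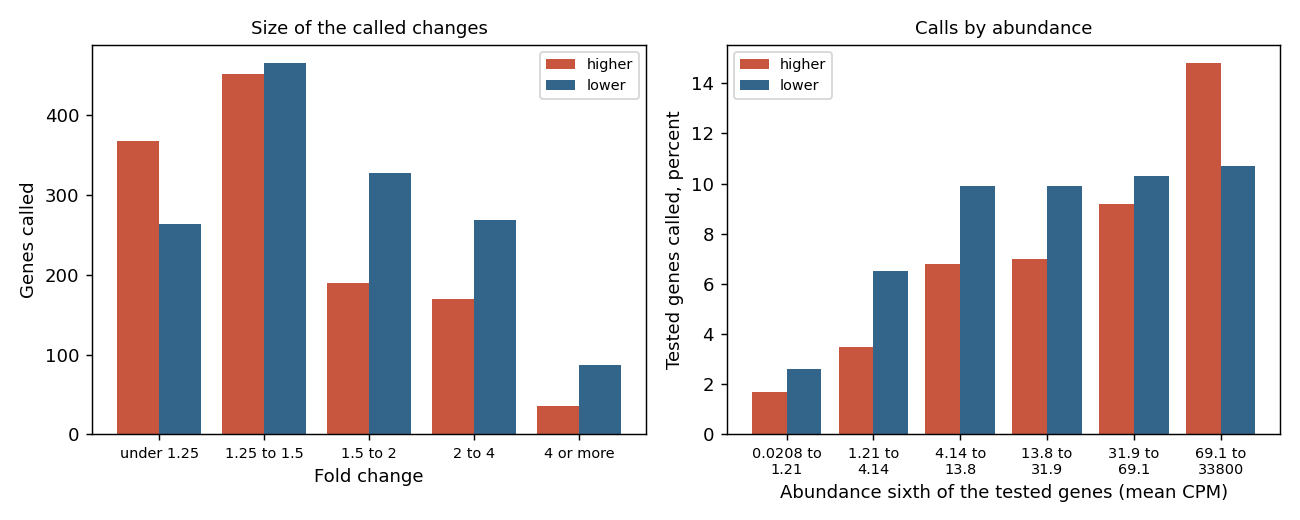
Left, the number of genes called higher (red) or lower (blue) with DDP_apoEV in 5 bands of fold change. Right, the percentage of tested genes called in each sixth of abundance, with the range of mean CPM under each pair of bars. Rises outnumber falls under 1.25-fold (367 against 263) and in the most abundant sixth, and falls outnumber rises at 4-fold or more.

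The 3 DDP_apoEV libraries did not move equally far. On the second principal component, which held 19.3% of the variance and separated these 2 groups, controls lay between 30.7 and 32.2, DDP_apoEV replicates 1 and 2 at −29.0 and −29.7, and replicate 3 at −18.5. Replicate 3 was the treated library nearest the controls for 1248 of the 2623 called genes (47.6%), replicate 2 for 801 and replicate 1 for 574. Of the called genes, 1303 (534 higher, 769 lower) passed again in each of the 6 fits that left out 1 library, and in all 1303 the 3 treated libraries lay wholly above or below the 3 controls. Without control replicate 3 the number called higher was 787, and the total over the 6 fits was 1841 to 2236. Over all tested genes the groups did not overlap in 32.2%, with the treated libraries above in 15.8% and below in 16.4%. Genes described below were called in all 6 of those fits unless their text says otherwise, and a number in parentheses after a gene, or after the words changed, rose or fell by, is its log2 fold change.

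**Figure D2:**
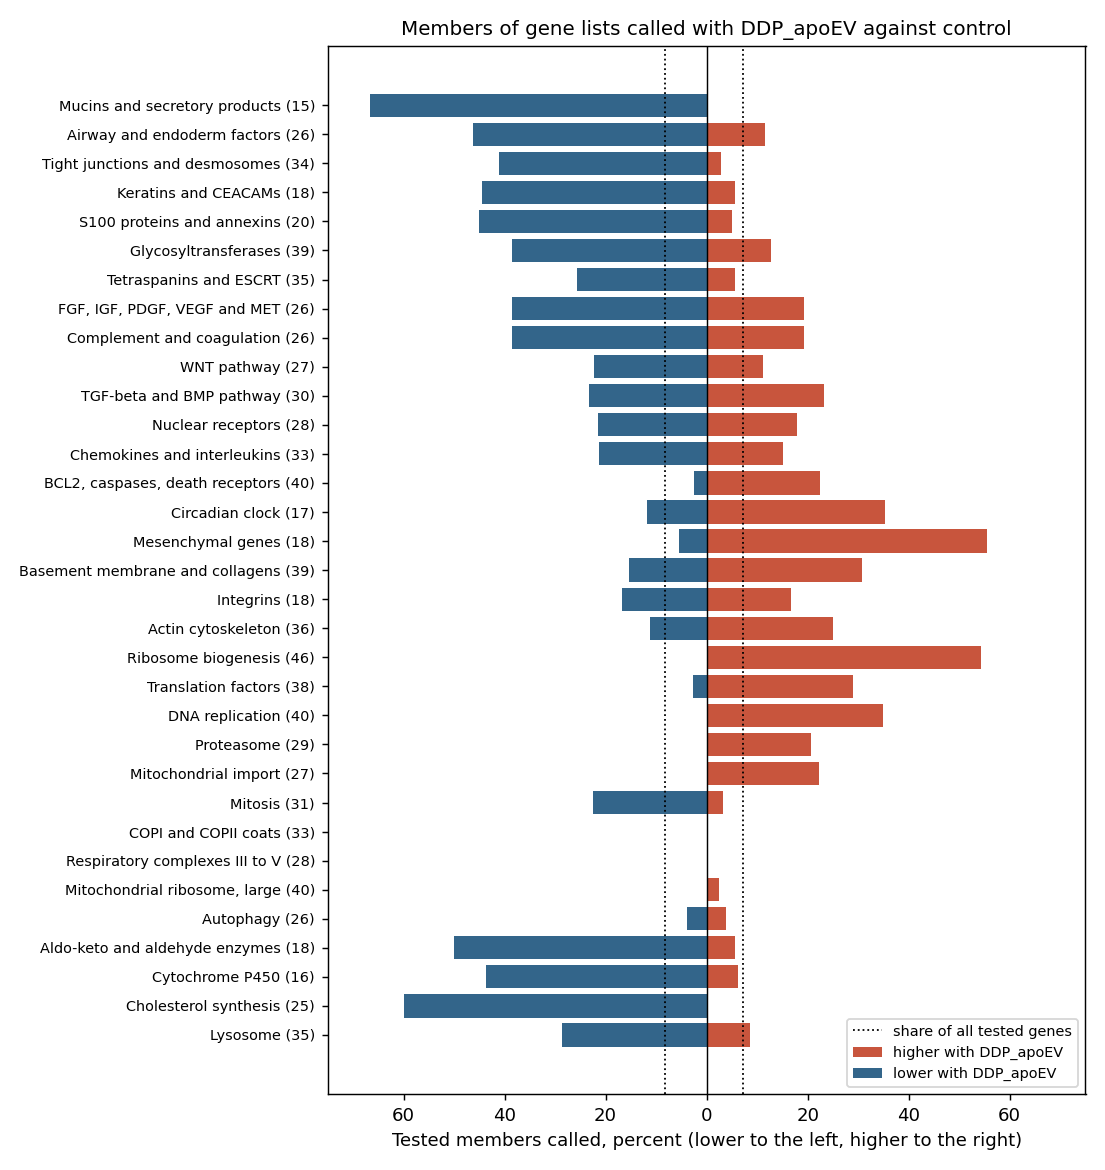
Bars give the percentage of tested members called lower (blue, leftward) or higher (red, rightward) with DDP_apoEV for 33 gene lists, with the number of tested members in parentheses. Dotted lines mark the share of all tested genes, 8.32% lower and 7.16% higher. Secretory, epithelial and sterol lists extend to the left, ribosome biogenesis, DNA replication, mesenchymal and clock lists to the right, and coat proteins and respiratory complexes III to V have no bar.

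Many regulators of epithelial identity fell. Of 26 tested transcription factors of airway and gut-type endoderm, 12 fell, 3 rose and 11 were not called, with a median log2 fold change of −0.43. ELF3, an ETS-family factor of differentiated epithelium, measured 206, 207 and 235 CPM in the control libraries and 89.2, 97.3 and 97.9 CPM with DDP_apoEV. The groups were well apart, and the fall was 2.28-fold (log2 fold change −1.19, SE 0.0755, adjusted p = 1.68e-13). Its relative EHF stood at 65.1, 66.6 and 66.8 CPM in control and 27.2, 25.8 and 36.1 CPM with DDP_apoEV, with replicate 3 nearest control (log2 fold change −1.16, SE 0.106, adjusted p = 4.84e-09). SPDEF, which drives goblet-cell differentiation, measured 33.4, 31.5 and 34 CPM in control against 8.13, 12.4 and 15.2 CPM (log2 fold change −1.47, SE 0.156, adjusted p = 2.29e-06). Treated libraries differed among themselves here, yet the highest of them stayed under the lowest control. Lower still in abundance, the liver and gut regulator HNF4A gave 15, 14 and 14.4 CPM in control and 7.81, 7.31 and 8.64 CPM with DDP_apoEV (log2 fold change −0.87, SE 0.143, adjusted p = 3.41e-05). SOX9, a progenitor and cartilage factor, changed by −1.02, the pioneer factor FOXA3 by −1.62 and the C/EBP factor CEBPD by −1.35 on the log2 scale. KLF5 was called lower too, but not without control replicate 3. So were FOXA1 and FOXA2, FOXA1 not without control replicates 2 or 3 or DDP_apoEV replicate 1, and FOXA2 not without control replicates 1 or 3 or DDP_apoEV replicates 1 or 3. The factors that rose were SOX2, a stem-cell factor whose gene lies inside another transcribed gene (1.65), ETS1 (0.53) and ETS2 (0.41).

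Genes of the epithelial surface moved in the same direction. Of 34 tested genes of tight junctions and desmosomes, 14 fell and 1 rose (median −0.29), with 10 to 14 falls in the fits without 1 library. TJP3, a scaffold under tight junctions, measured 16.3, 13.3 and 16.4 CPM in control and 3.81, 4.39 and 4.64 CPM with DDP_apoEV, a 3.58-fold fall (log2 fold change −1.84, SE 0.148, adjusted p = 3.09e-11). The pore-forming claudin CLDN2 went from 142, 135 and 172 to 43.8, 49.5 and 65.6 CPM (log2 fold change −1.5, SE 0.134, adjusted p = 8.56e-06), again with no overlap. CGN, which ties tight junctions to the cytoskeleton, changed by −1.25, the polarity scaffold PATJ by −0.66, the desmosomal plaque gene PKP2 by −0.57 and the desmosomal cadherin DSG2 by −0.37. CLDN1, a barrier-forming claudin, was the exception, at 65.6, 65.4 and 66.6 CPM in control and 91, 101 and 86.5 CPM with DDP_apoEV (log2 fold change 0.50, SE 0.0799, adjusted p = 2.55e-05). The intestinal cadherin CDH17 measured 145, 148 and 151 CPM in control and 38.1, 38.1 and 50.9 CPM with DDP_apoEV, a change of −1.81. CDH17 belongs to 19 tested genes of intestinal and hepatic epithelium, a list chosen after the values were seen, of which 16 fell, none rose and 3 were not called. Among them were the microvillus proteins VIL1 (−2.13) and USH1C (−2.57), the vitamin B12 carrier TCN1 (−2.10) and the protease HABP2 (−2.01).

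Several membrane-organising proteins fell too. Of 20 tested S100 proteins and annexins, 9 fell and 1, ANXA6, rose, a call that ended without control replicate 2 or 3 or DDP_apoEV replicate 1 or 2. ANXA4, an abundant calcium-dependent membrane binder, went from 932, 959 and 969 CPM to 405, 379 and 465 CPM (log2 fold change −1.19, SE 0.0742, adjusted p = 1.13e-13). S100P, a small calcium-binding protein, went from 41, 35.3 and 42.2 to 9.13, 10.1 and 16.4 CPM (log2 fold change −1.73, SE 0.209, adjusted p = 0.000445), with replicate 3 highest of the treated libraries. ANXA13 changed by −1.09, ANXA3 by −0.55, S100A6 by −0.39 and S100A4 by −0.35. Of 35 tested tetraspanin and ESCRT (vesicle budding) genes, 9 fell and 2 rose. The number that fell was 5 without DDP_apoEV replicate 3, and the number that rose was 1 without DDP_apoEV replicate 2. TSPAN8, a tetraspanin of secreted vesicles, stood at 13.1, 13.3 and 15.6 CPM in control and 1.0, 1.95 and 3.11 CPM with DDP_apoEV (log2 fold change −2.79, SE 0.217, adjusted p = 3.7e-09). TSPAN13 changed by −0.71, the heparan sulfate carrier SDC2 by −2.05 and CD9 by −0.30, whereas SDC4 rose by 0.59. In a related family chosen after the values were seen, 6 of 8 tested TM4SF and uroplakin genes fell, among them TM4SF4 (−1.28), TM4SF20 (−1.86) and UPK1B (−1.60). All 6 of these falls passed in every fit without 1 library.

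Most secretory products and several enzymes that decorate them with sugars were lower. Of 15 tested mucin and secretory genes 10 fell and none rose, with a median of −1.47. AGR2, which folds mucins, measured 663, 650.1 and 699 CPM in control and 234, 242 and 340.3 CPM with DDP_apoEV (log2 fold change −1.30, SE 0.124, adjusted p = 1.93e-05). LCN2, which sequesters bacterial iron carriers, measured 53, 52.4 and 63.3 CPM in control and 8.19, 7.31 and 16.4 CPM with DDP_apoEV (log2 fold change −2.41, SE 0.29, adjusted p = 0.00215). SLPI, a protease inhibitor of airway fluid, measured 29.4, 26 and 31.6 against 5.63, 5.55 and 9.21 CPM (log2 fold change −2.10, SE 0.155, adjusted p = 2.42e-09). In all 3 genes DDP_apoEV replicate 3 was the highest of the treated libraries and still far below control. MUC5B, a gel-forming mucin, changed by −1.73 and the membrane mucin MUC13 by −0.89. Of 39 tested glycosyltransferases, 15 fell and 5 rose. Without control replicates 2 and 3 and DDP_apoEV replicate 2, each left out alone, the number that rose was 3, 2 and 3. Those that fell included enzymes that start or extend mucin-type O-glycans, namely GALNT5 (−0.84), GALNT12 (−0.88), ST3GAL1 (−0.79), GCNT3 (−0.29) and ST6GALNAC1, which was at 2.86, 2.19 and 3.61 CPM in control and 0.125, 0.549 and 0.445 CPM with DDP_apoEV (−2.92). The galactosyltransferase B4GALT1 (0.47) and the ganglioside synthase ST3GAL5 (0.46) rose.

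Growth factor signalling genes changed in both directions, with the receptors of fibroblast growth factors lower. Of 26 tested genes of the FGF, IGF, PDGF, VEGF and MET families, 10 fell and 5 rose. FGFR4 measured 48.5, 41.7 and 46 CPM in control and 17.6, 19.6 and 18.7 CPM with DDP_apoEV (log2 fold change −1.28, SE 0.105, adjusted p = 4.59e-11). FGFR1 went from 89.5, 92.4 and 84.5 to 48.6, 52.8 and 47.8 CPM (log2 fold change −0.84, SE 0.0825, adjusted p = 2.94e-09), and FGFR2, at 2.28, 2.87 and 3.19 CPM in control, fell to 0.188, 0.427 and 0.572 CPM (log2 fold change −2.79, SE 0.426, adjusted p = 1.05e-05). FGFR3 was called lower as well (−1.11), a call lost without control replicate 3, so all 4 receptor genes were lower in these libraries. FGFBP1, which releases stored FGF, changed by −1.54, the IGF carriers IGFBP3 by −1.34 and IGFBP1 by −1.03, and the angiogenic factor VEGFA by −0.67. In the other direction, IGFBP4 (0.45), IGFBP7 (0.40) and the lymphatic growth factor VEGFC (0.99) rose. Among 13 tested ERBB ligands and receptors 3 rose and 2 fell. EREG, a ligand of EGFR, measured 92.5, 94.4 and 85.9 CPM in control and 178, 174 and 132 CPM with DDP_apoEV (log2 fold change 0.83, SE 0.115, adjusted p = 9.78e-05). The ligand NRG1 rose by 0.45 and EGFR itself by 0.37, while of the falls, in ERBB2 and ERBB3, none was left without control replicate 1 and 1 without any other single library. DUSP5, a phosphatase of the ERK pathway downstream, changed by −0.64. Of 18 tested feedback genes of that pathway 1 fell, 0 rose and 17 were not called. The share called was 5.6%, against 15.5% of all tested genes.

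The BMP and TGF-beta pathway had as many rises as falls, 7 of each among 30 tested genes. BMP4, a secreted ligand, went from 47.5, 48.6 and 55.4 to 23.6, 23 and 26.3 CPM (log2 fold change −1.05, SE 0.0931, adjusted p = 2.6e-10). BMP6, which was not in the list and was chosen after its values were seen, went from 6.64, 6.77 and 9.86 to 2.25, 1.46 and 2.35 CPM (log2 fold change −1.94, SE 0.225, adjusted p = 7.93e-08). BAMBI, a pseudoreceptor, changed by −1.20 and the activin subunit INHBB by −0.65. Genes that rose included BMPER, a secreted BMP binder (2.87), ID2 (0.71) and SMAD3 (0.29). PMEPA1, a TGF-beta feedback gene also chosen after its values were seen, went from 74.2, 64.4 and 68.7 to 152, 167 and 137 CPM (1.14). In the WNT pathway 6 of 27 tested genes fell and 3 rose. The WNT antagonist SFRP1 gave the largest rise of the list, from 28, 30.9 and 32.8 to 84.2, 88.9 and 77.8 CPM (log2 fold change 1.45, SE 0.090, adjusted p = 1.13e-13), and the receptor-degrading ligase RNF43 (−0.97) and the receptors FZD7 (−0.61) and FZD5 (−0.55) fell. HES1, an effector of Notch, changed by −1.38. Among 28 tested nuclear receptors and partners 6 fell, including the mitochondrial coactivator PPARGC1A (−2.09), NR4A1 (−1.32) and PPARA (−0.97), and 5 rose, including the vitamin D receptor VDR (1.31). The number that rose was 2 or 3 in each of 5 fits, namely those without control replicates 1, 2 or 3 and without DDP_apoEV replicates 1 or 2.

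Basement membrane genes split by chain. Of 39 tested basement membrane and collagen genes, 12 rose and 6 fell, with a median of 0.37. The number that rose was 8 to 13 in the fits without 1 library. Type IV collagen, the sheet-forming collagen of basement membranes, is built from 6 chains whose genes lie head to head in pairs, so that neighbouring genes share the region between their start sites. COL4A3 and COL4A4 on chromosome 2, with start sites 419 bases apart, both fell. COL4A3 stood at 22.6, 23.4 and 26 CPM in control and 6.31, 7.37 and 7.18 CPM with DDP_apoEV (log2 fold change −1.78, SE 0.13, adjusted p = 3.38e-12), and COL4A4 at 21.6, 23.1 and 21 and 8.13, 9.51 and 9.21 CPM (log2 fold change −1.29, SE 0.127, adjusted p = 2.7e-09). COL4A5 and COL4A6 on chromosome X, 380 bases apart, both rose. COL4A5 went from 23.2, 25 and 28.9 to 36.1, 39.2 and 39 CPM (log2 fold change 0.57, SE 0.0942, adjusted p = 3.78e-05), and COL4A6 from 5.4, 6.63 and 7.7 to 15.5, 16.5 and 16.8 CPM (log2 fold change 1.31, SE 0.135, adjusted p = 7.81e-09). No treated library overlapped a control in any of these 4 genes. The remaining pair, COL4A1 and COL4A2, changed by 0.58 (adjusted p = 0.0311, lost in 4 of the 6 fits without 1 library, those without control replicates 2 or 3 or DDP_apoEV replicates 1 or 2) and by 0.21 (not called). The shared regions of the pairs that moved are shown by the 250 bases before the start of COL4A3 (GRCh38.p14, chr2:227164374-227164623, plus strand) and of COL4A6 (chrX:108439459-108439708, minus strand), from RefSeq. Capitals mark the bases that also lie within the 250 bases before the partner's start, 82 bases for the first and 121 for the second.
COL4A3: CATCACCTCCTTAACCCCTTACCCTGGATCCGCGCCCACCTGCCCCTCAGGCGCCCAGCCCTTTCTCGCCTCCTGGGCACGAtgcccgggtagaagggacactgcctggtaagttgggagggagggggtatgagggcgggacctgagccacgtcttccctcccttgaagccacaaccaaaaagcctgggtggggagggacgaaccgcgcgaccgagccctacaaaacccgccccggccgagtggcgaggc
COL4A6: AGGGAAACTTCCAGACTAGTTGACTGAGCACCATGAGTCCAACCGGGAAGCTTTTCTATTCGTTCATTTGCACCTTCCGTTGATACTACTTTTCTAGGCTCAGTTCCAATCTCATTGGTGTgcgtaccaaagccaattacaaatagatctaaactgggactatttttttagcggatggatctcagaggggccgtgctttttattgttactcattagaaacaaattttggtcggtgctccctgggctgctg

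Laminin chains also parted. LAMA3 and LAMB3 encode chains of one laminin that anchors epithelia, and LAMA3 rose while LAMB3 fell. LAMA3 measured 32.2, 32.7 and 29.5 CPM in control and 72, 83.4 and 68.2 CPM with DDP_apoEV (log2 fold change 1.24, SE 0.101, adjusted p = 1e-10). LAMB3 measured 24, 15.3 and 25.7 CPM in control and 10.9, 11.9 and 12 CPM with DDP_apoEV (log2 fold change −0.90, SE 0.152, adjusted p = 0.000223). The chains of the widespread laminins were not called, with LAMA5 at 0.15. The matrix protein gene TNC rose, and the type VI collagen chain COL6A2 went from 1.95, 2.19 and 1.11 to 4.19, 4.57 and 4.32 CPM (1.31). Fibronectin, FN1, was at 121, 121 and 170.3 CPM in control and 55.6, 96.7 and 93.4 CPM with DDP_apoEV and was not called (adjusted p = 0.105). Among 18 tested integrins 3 rose and 3 fell, with 1 fall left without DDP_apoEV replicate 1. The collagen receptor subunit ITGA2 went from 47.6, 60.1 and 58.3 to 110.0, 121 and 99.3 CPM (log2 fold change 0.99, SE 0.0955, adjusted p = 9.92e-09), ITGA5 changed by 0.78 and the laminin receptor subunit ITGA3 by 0.47. ITGB8, which activates latent TGF-beta, changed by −1.19.

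Mesenchymal genes mostly rose, 10 of 18 tested against 1 that fell (2 without DDP_apoEV replicate 1), with a median of 0.50. In the fits without 1 library 7 to 9 rose. VIM, the mesenchymal intermediate filament, measured 317, 287 and 324 CPM in control and 461, 476 and 401 CPM with DDP_apoEV (log2 fold change 0.53, SE 0.0754, adjusted p = 3.4e-06). The receptor kinase AXL went from 90.3, 77 and 71.8 to 137, 138 and 115 CPM (log2 fold change 0.71, SE 0.0866, adjusted p = 2.38e-07), and the hyaluronan receptor CD44 from 343, 341 and 343 to 525, 571 and 472 CPM (log2 fold change 0.61, SE 0.0718, adjusted p = 1.05e-07). All 3 genes had every treated library above every control. NT5E, which makes adenosine at the cell surface, changed by 0.93 and the repressor ZEB2 by 0.92. Hyaluronan synthases HAS2 (1.03) and HAS3 (1.28), chosen after their values were seen, rose, while UGDH, which makes a hyaluronan precursor, fell (−0.43). In the actin cytoskeleton 9 of 36 tested genes rose and 4 fell. The filament bundler FSCN1 rose (0.72), as did PDLIM7 (0.75), TPM2 (0.45) and MYH9 (0.40), and the severing and capping proteins GSN (−0.72) and CAPG (−0.76) fell. Extracellular proteases and their inhibitors went both ways. MMP7, a protease of glandular epithelium, went from 279, 270.2 and 299 to 86.4, 78 and 96.3 CPM (log2 fold change −1.70, SE 0.0809, adjusted p = 8.52e-17), while PLAU rose by 0.61 and ADAM19 by 1.87.

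**Figure D3:**
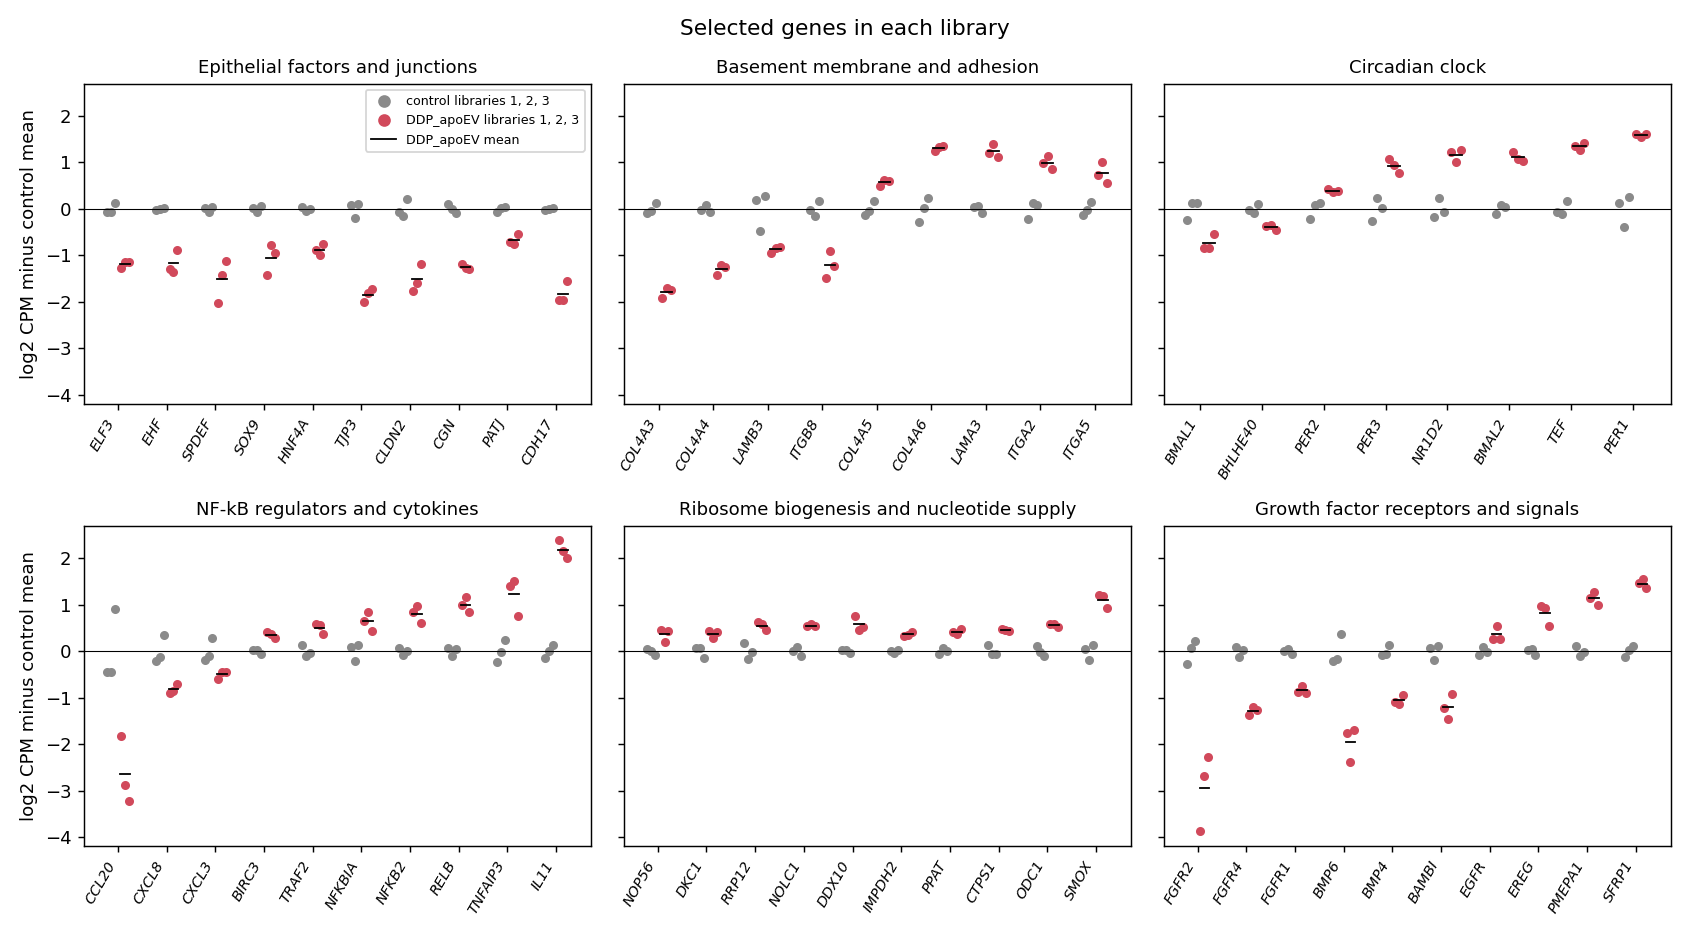
Each point is 1 library, control in grey and DDP_apoEV in red, as log2 CPM minus the mean of the 3 control libraries, with a black line at the mean of the DDP_apoEV libraries, for 6 groups of genes. In the first panel all treated points lie below 0, in the fifth all lie above 0, and in the others genes stand on both sides. The treated points lie clear of the controls in every gene drawn.

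Several clock genes shifted. The circadian clock is a feedback loop in which CLOCK and BMAL1 switch on PER, CRY and NR1D genes through E-box elements in their promoters, and the products of these genes repress the loop. Of 17 tested clock genes, 6 rose, 2 fell and 9 were not called, with a median of 0.39. PER1 measured 4.62, 3.21 and 5.07 CPM in control and 12.8, 12.3 and 12.8 CPM with DDP_apoEV (log2 fold change 1.55, SE 0.198, adjusted p = 4.43e-07). NR1D2, a repressor of BMAL1, went from 18.6, 24.6 and 19.9 to 48.6, 41.7 and 50.3 CPM (log2 fold change 1.16, SE 0.109, adjusted p = 1.38e-09), and PER3 from 5.4, 7.52 and 6.52 to 13.6, 12.4 and 10.9 CPM (log2 fold change 0.93, SE 0.175, adjusted p = 0.00023). In each of these genes the treated libraries lay close together and above all controls. The output factor TEF went from 1.82, 1.78 and 2.15 to 4.88, 4.57 and 5.15 CPM (log2 fold change 1.34, SE 0.262, adjusted p = 0.00034). BHLHE41 rose from 0.325, 0.0684 and 0.278 to 1.56, 2.56 and 1.27 CPM, a small number of reads in control (2.96), and NR1D1, which overlaps a gene on the opposite strand, by 0.68 with a call lost in 5 fits, all those without 1 library except the one without DDP_apoEV replicate 3. BMAL1 fell, from 19.8, 25.6 and 25.5 to 13.1, 13.2 and 16.2 CPM (log2 fold change −0.74, SE 0.132, adjusted p = 9.8e-05), and BHLHE40 fell by 0.39 on the log2 scale. PER2 was at 9.89, 12.3 and 12.6 CPM in control and 15.5, 14.9 and 15 CPM with DDP_apoEV and just missed the threshold (adjusted p = 0.0528), whereas CLOCK was not called (−0.15). BMAL2, a paralogue of BMAL1 outside the list and chosen after its values were seen, went from 51.7, 59.2 and 57.3 to 131, 117 and 115 CPM (log2 fold change 1.11, SE 0.0861, adjusted p = 1.45e-11). All cells were harvested at 96 h, and the labels give no time of day. Direct comparison with the other vesicles showed PER1 lower in STS_apoEV than in DDP_apoEV by 2.13 on the log2 scale (adjusted p = 4.91e-10) and PER3 by 1.70 (adjusted p = 5.41e-09).

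RefSeq promoters of GRCh38.p14 were matched to 11283 of the 16947 tested genes, including all 17 clock genes. The E-box, CACGTG, reads the same on both strands and occurred in the 250 bases before the start of 8.7% of the matched genes, 7.8% of those called higher and 8.5% of those called lower, and in 6.5% of all 27305 promoters in the table. Among the clock genes it was present in 3 of the 6 that rose, in BHLHE40 of the 2 that fell, and in none of the 9 not called. The windows of the 3 that rose are shown because they are the members in which both the change and the motif were found, with the E-box in capitals: PER1 (chr17:8152405-8152654, minus strand), TEF (chr22:41367205-41367454, plus strand) and BHLHE41 (chr12:26125038-26125287, minus strand). A match describes the letters of this window and is not evidence that a factor binds there.
PER1: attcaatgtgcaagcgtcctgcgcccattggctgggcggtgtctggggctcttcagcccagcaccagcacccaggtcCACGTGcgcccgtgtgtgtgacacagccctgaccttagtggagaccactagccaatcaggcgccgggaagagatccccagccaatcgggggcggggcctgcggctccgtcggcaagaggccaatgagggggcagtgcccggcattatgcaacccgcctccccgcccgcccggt
TEF: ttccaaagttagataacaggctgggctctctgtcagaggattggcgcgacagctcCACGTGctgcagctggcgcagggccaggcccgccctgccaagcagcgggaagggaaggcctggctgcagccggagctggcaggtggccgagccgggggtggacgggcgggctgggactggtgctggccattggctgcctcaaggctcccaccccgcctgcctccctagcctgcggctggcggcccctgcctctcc
BHLHE41: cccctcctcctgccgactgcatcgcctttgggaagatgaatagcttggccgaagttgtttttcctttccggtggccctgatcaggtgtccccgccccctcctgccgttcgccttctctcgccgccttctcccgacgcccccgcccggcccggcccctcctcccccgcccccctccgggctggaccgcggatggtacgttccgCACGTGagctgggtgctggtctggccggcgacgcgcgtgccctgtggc

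Several regulators of the factor NF-kB rose while several chemokines fell. NF-kB controls inflammatory and survival genes, and many of its inhibitors and adaptors are also its targets. Of 23 tested NF-kB subunits and regulators, a list chosen after values were seen, 11 rose, none fell and 12 were not called, and the 11 passed in every fit without 1 library. RELB, a subunit of the slower, non-canonical branch, measured 15.9, 14 and 15.5 CPM in control and 30.3, 33.8 and 27.1 CPM with DDP_apoEV (log2 fold change 1.0, SE 0.112, adjusted p = 4e-08), and its partner NFKB2 51.8, 46.7 and 49.8 and 88.5, 96.4 and 75 CPM (log2 fold change 0.81, SE 0.0885, adjusted p = 2.39e-08). TNFAIP3, an inhibitor of the pathway, went from 6.64, 7.73 and 9.3 to 20.6, 22.4 and 13.2 CPM, with replicate 3 the lowest of the treated libraries (log2 fold change 1.25, SE 0.176, adjusted p = 8.33e-05). NFKBIA changed by 0.65, NFKBIE by 0.83, TNIP1 by 0.57, the non-canonical kinase MAP3K14 by 0.58, and the adaptors TRAF1, TRAF2 and TRAF3 by 0.97, 0.50 and 0.61. The subunit gene RELA was not called (0.17). TNFRSF9, a surface receptor outside the list and chosen after its values were seen, went from 3.38, 3.69 and 3.54 to 16.7, 13.9 and 14.9 CPM (2.10).

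Among cytokines and their receptors changes went both ways. Of 33 tested chemokines, interleukins and receptors 7 fell and 5 rose, and the latter count was 3 without control replicate 1 or control replicate 2. CXCL8, which attracts neutrophils, measured 86.5, 91.1 and 127 CPM in control and 53.3, 55.5 and 61.2 CPM with DDP_apoEV (log2 fold change −0.84, SE 0.128, adjusted p = 0.000588). CCL20, a lymphocyte attractant, was low throughout, at 1.3, 1.3 and 3.33 CPM in control and 0.50, 0.244 and 0.191 CPM with DDP_apoEV (log2 fold change −2.63, SE 0.495, adjusted p = 0.000255). CXCL3 fell by 0.50 on the log2 scale, a call lost without control replicate 3, which was the highest control library for CXCL8, CCL20 and CXCL3 alike. IL11, a cytokine of the IL-6 family, rose from 3.32, 3.69 and 4.03 to 19.1, 16.4 and 14.7 CPM (log2 fold change 2.18, SE 0.181, adjusted p = 6.52e-11), and the interleukin 4 receptor IL4R by 1.12. The cytokine suppressors SOCS2 (1.01) and SOCS3 (1.01), chosen after their values were seen, rose. CXCL8 averaged 369.9 CPM in the STS_apoEV libraries, higher than with DDP_apoEV by 2.71 on the log2 scale (adjusted p = 3.22e-09), and 19 of the 33 genes were higher and 3 lower in STS_apoEV, where 20.2% and 19.5% of all tested genes were higher and lower.

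Among 40 tested BCL2, caspase and death receptor genes 9 rose and 1 fell, with 6 to 8 rises in the fits without 1 library. BCL2A1, an antiapoptotic BCL2 relative, rose from 0.195, 0.547 and 0.486 to 2.56, 1.95 and 1.97 CPM (log2 fold change 2.39, SE 0.412, adjusted p = 6.75e-05). TNFRSF10D, a decoy receptor, changed by 0.54, the signalling receptor TNFRSF10B by 0.30 and the inhibitor BIRC3 by 0.36, and the caspase activator APAF1 by −0.39. Of 32 tested interferon-stimulated genes 3 fell and 1 rose (2 without DDP_apoEV replicate 2), where 8.32% and 7.16% of all tested genes did so. Those that fell were OAS1 (−0.59), PLSCR1 (−0.42) and SAMD9 (−0.51), and the riser was UBE2L6 (0.58). Immediate early factors split, with FOSL1 going from 17, 14.3 and 12.6 to 39.3, 30 and 29.2 CPM (log2 fold change 1.17, SE 0.133, adjusted p = 9.74e-08) while JUN changed by −0.43 and ATF3 by −0.88.

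Many genes that build ribosomes rose in small steps. Of 46 tested genes of ribosome biogenesis, the nucleolar process that makes ribosomes, 25 rose and none fell, with a median of 0.28. NOLC1 measured 185, 195 and 171 CPM in control and 266, 274 and 267 CPM with DDP_apoEV (log2 fold change 0.55, SE 0.074, adjusted p = 1.22e-06). The snoRNP protein NOP56 went from 354, 344 and 325 to 465, 390.2 and 463 CPM (log2 fold change 0.37, SE 0.0735, adjusted p = 0.000467), and the pseudouridine synthase DKC1 from 189, 188 and 161 to 241, 216 and 238 CPM (log2 fold change 0.37, SE 0.0771, adjusted p = 0.000727). DDX10 (0.59) and RRP12 (0.55) were among the larger changes. These are small changes between tight libraries. The number of risen genes was 18 to 24 in the fits without 1 library, and 6 with limma on log2(FPKM + 1) without a filter. MYC, a known activator of ribosome production, went from 64.6, 55.5 and 60.5 to 83, 80.4 and 70.1 CPM (log2 fold change 0.37, SE 0.0842, adjusted p = 0.00192).

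Other lists of growth genes depended more on single libraries. Translation factors rose in 11 of 38 cases, yet only 3 to 10 rose in the fits without 1 library, with 3 without DDP_apoEV replicate 1, 4 without control replicate 3, and 7 where control replicate 2 or either of DDP_apoEV replicates 2 and 3 was left out. The replicate block gave 7. In DNA replication 14 of 40 genes rose and none fell, with 6 without control replicate 3 and 8 without DDP_apoEV replicate 2. MCM10, which starts replication forks, measured 69, 72.8 and 64.1 CPM in control and 86.5, 90.6 and 97.3 CPM with DDP_apoEV (log2 fold change 0.41, SE 0.0799, adjusted p = 0.000295), and CHAF1B, which deposits histones behind them, changed by 0.39. Proteasome subunits rose in 6 of 29 cases, 3 without control replicate 2 or 3. The proteasome subunit PSMB7 changed by 0.45 and PSMD2 by 0.30. Of 31 mitosis genes 7 fell, 4 without control replicate 2 or DDP_apoEV replicate 2, and 1 rose, a call absent without control replicate 1 or 3 and without DDP_apoEV replicate 1. KIF20A changed by −0.36 and CCNA2 by −0.29. MKI67, the common proliferation marker, overlapped between groups, at 248, 265 and 236 CPM in control and 230.3, 277 and 242 CPM with DDP_apoEV, and was not called (adjusted p = 0.99). The inhibitors of cyclin-dependent kinases CDKN1B (−0.72) and CDKN2C (−0.76), chosen after their values were seen, fell.

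Some genes of precursor supply rose, while most were not called. Of 12 tested purine synthesis genes 4 rose and 1 fell. PPAT, the first enzyme of the pathway, measured 43, 47.4 and 45 CPM in control and 60.1, 58.4 and 62.6 CPM with DDP_apoEV (log2 fold change 0.42, SE 0.0842, adjusted p = 0.000468). IMPDH2 went from 167, 164 and 171 to 209.5, 213 and 223 CPM (0.36), and the CTP synthase CTPS1, the 1 of 13 tested pyrimidine and deoxynucleotide genes that was called, from 140.4, 123 and 123 to 179, 176 and 174 CPM (0.45). In all 3 genes the treated libraries lay close together above the controls. Among 17 tested serine and one-carbon genes 3 rose, the serine synthesis enzymes PHGDH (0.55) and PSAT1 (0.50) among them, 1 fell (none without control replicate 1) and 13 were not called. Of 12 tested polyamine genes 2 (16.7%) were called, near the 15.5% of all tested genes. They were ODC1 (0.56) and the spermine oxidase SMOX, which went from 63.6, 54.2 and 66.8 to 141, 139.6 and 117 CPM (log2 fold change 1.11, SE 0.088, adjusted p = 2.89e-11). CARS1, the cysteine tRNA synthetase, was the 1 of 19 synthetases that fell (−1.0). Of these synthetases 6 rose with all libraries, 1 without control replicate 3 and 3 without control replicate 2.

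Some core machinery was not called. Of 33 tested coat and Golgi transport genes (COPI and COPII) edgeR called none, and 5 had an unadjusted p under 0.05. Of 28 tested subunits of respiratory complexes III to V it called none, and 2 had an unadjusted p under 0.05. DESeq2, limma-voom and limma on log2(FPKM + 1) also called 0 genes in both lists. Without DDP_apoEV replicate 1 a single coat gene was called, and without control replicate 1 or DDP_apoEV replicate 2 a single respiratory gene. Their median log2 fold changes were 0.05 and 0.021, against −0.003 for all tested genes.

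Several enzymes of detoxification were lower, as was NFE2L2, the gene of NRF2. NFE2L2 measured 119, 119 and 118 CPM in control and 90.8, 84.6 and 87.9 CPM with DDP_apoEV (log2 fold change −0.44, SE 0.0754, adjusted p = 6.31e-05), and its inhibitor KEAP1 was not called (−0.14). Of 18 tested aldo-keto reductases and aldehyde dehydrogenases, 9 fell and 1 rose (2 without control replicate 3 or DDP_apoEV replicate 3), with 5, 5 and 4 falls without control replicate 1, control replicate 3 and DDP_apoEV replicate 1. AKR1B10 lost more CPM than any other of them, from 6353, 6343 and 6522 to 4506, 3971 and 4536 CPM (log2 fold change −0.56, SE 0.0701, adjusted p = 3.04e-07). AKR1C1 and AKR1C2, near-identical genes whose reads the counting may split, changed by −0.59 and −0.42. AKR1B1, the glucose-reducing relative, went the other way, from 1715, 1536 and 1790.4 to 2807, 2931 and 2500.4 CPM (log2 fold change 0.71, SE 0.0763, adjusted p = 1.73e-08). GPX2, an epithelial glutathione peroxidase, went from 1282, 1292 and 1499 to 537, 589.8 and 751 CPM (log2 fold change −1.12, SE 0.106, adjusted p = 1.84e-06), and GCLM, a subunit of the enzyme that starts glutathione synthesis, from 271, 286 and 285 to 213, 232 and 207 CPM (log2 fold change −0.37, SE 0.0705, adjusted p = 0.000255). NFE2L3, a relative of NFE2L2 chosen after its values were seen, rose from 9.63, 10.7 and 7.77 to 23.9, 24.2 and 26.2 CPM (1.40). Genes of cytochrome P450 enzymes and the aryl hydrocarbon receptor fell in 7 of 16 cases, with CYP4F3 (−0.90), CYP2S1 (−0.77) and CYP1B1 (−0.49), and 1, the receptor target TIPARP (0.38), rose (2 without DDP_apoEV replicate 3).

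The antioxidant response motif, TGACNNNGC on either strand, was found before the start of 12.2% of the matched genes, 11.9% of those called higher, 11.4% of those called lower and 11% of all promoters in the table. In the glutathione and thioredoxin list it was present in 3 of the 4 genes that fell (GCLM, GPX2 and TXNRD1), in 0 of 1 with a promoter that rose and in 2 of 10 not called. The TXNRD1 call was lost in all 6 fits without 1 library. In the list of aldo-keto reductases and aldehyde dehydrogenases the motif was present in 0 of the 7 promoters of genes that fell. There it was in 0 of 1 that rose and in 1 of 6 not called. The GCLM (chr1:93909431-93909680, minus strand) and GPX2 (chr14:64942746-64942995, minus strand) windows, from RefSeq GRCh38.p14, show these motifs in capitals.
GCLM: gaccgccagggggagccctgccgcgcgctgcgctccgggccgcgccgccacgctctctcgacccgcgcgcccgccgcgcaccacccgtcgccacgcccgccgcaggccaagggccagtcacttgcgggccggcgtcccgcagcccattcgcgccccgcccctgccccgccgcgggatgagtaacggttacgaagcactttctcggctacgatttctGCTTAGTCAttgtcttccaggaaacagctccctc
GPX2: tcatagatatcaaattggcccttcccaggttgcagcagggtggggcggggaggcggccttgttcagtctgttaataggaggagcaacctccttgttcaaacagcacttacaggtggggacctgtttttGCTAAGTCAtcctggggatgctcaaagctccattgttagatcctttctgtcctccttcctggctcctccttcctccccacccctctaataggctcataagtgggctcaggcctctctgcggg

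Of 11 tested metallothionein and zinc transporter genes MT2A alone rose and the zinc importer SLC39A10 fell (−0.45). The share called was thus 18.2%, near the 15.5% of all tested genes. MT2A, a metallothionein that holds zinc and copper, measured 61.2, 52.3 and 45.1 CPM in control and 165, 134 and 154 CPM with DDP_apoEV (log2 fold change 1.51, SE 0.101, adjusted p = 2.27e-10), all treated libraries being above all controls. Its close relatives share sequence with it, so part of the reads may be assigned to the wrong member. MT1X (0.57) and the zinc exporter SLC30A1 (0.07), members of the same list, were not called. The 250 bases before the MT2A start (RefSeq GRCh38.p14, chr16:56608334-56608583, plus strand) hold 7 matches to the metal response motif, TGCGCNC or TGCACNC on either strand, shown in capitals because they are dense there. That motif is common, in 32.9% of matched genes, 32.2% of those called higher, 33.0% of those called lower and 24.7% of all promoters in the table, and it was also present before MT1X and SLC30A1.
MT2A: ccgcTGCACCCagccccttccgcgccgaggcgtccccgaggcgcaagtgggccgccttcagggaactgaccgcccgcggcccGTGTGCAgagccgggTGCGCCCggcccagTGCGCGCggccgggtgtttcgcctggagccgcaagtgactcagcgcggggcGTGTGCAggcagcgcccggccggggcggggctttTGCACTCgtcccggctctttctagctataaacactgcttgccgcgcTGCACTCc

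Lipid handling and transport changed in several places. Of 25 tested cholesterol synthesis genes 15 fell and none rose (median −0.32), with 10 to 16 falls in the fits without 1 library. HMGCS1, an early enzyme, measured 511, 516 and 433 CPM in control and 300.0, 289 and 306 CPM with DDP_apoEV (log2 fold change −0.70, SE 0.0742, adjusted p = 1.18e-08). ABCA1, which exports cholesterol, rose from 5.21, 5.13 and 4.72 to 29.1, 30.2 and 20.2 CPM (log2 fold change 2.40, SE 0.152, adjusted p = 1.68e-13). NPC1, which moves cholesterol out of lysosomes, rose from 42.9, 44.6 and 45.8 to 103, 126 and 76.5 CPM, with the 3 treated libraries far apart (log2 fold change 1.20, SE 0.161, adjusted p = 0.000737). Of 11 tested sterol efflux genes 3 rose, ABCA1 among them. In the lysosome 10 of 35 genes fell and 3 rose, 6 falling without DDP_apoEV replicate 3. TPP1 (−0.54), CTSD (−0.53) and CTSA (−0.51) fell, and CTSB (0.44) rose. Of membrane transporters, the amino acid exporter subunit SLC7A7 went from 85, 77.8 and 79.7 to 18.2, 20.7 and 21 CPM (log2 fold change −2.02, SE 0.0917, adjusted p = 4.04e-17), SLC40A1, an iron exporter, changed by −0.94 and the glucose transporter SLC2A3 by −1.0. The potassium channels parted, KCNMA1 changing by 1.61 and KCNK5 by −1.79.

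Clotting factors, stress hormones and receptors were among the remaining changes. Of 26 tested complement and coagulation genes 10 fell and 5 rose, 3 without DDP_apoEV replicate 1. FGA, the alpha chain of fibrinogen, measured 47.8, 52.9 and 64.8 CPM in control and 9.69, 10.1 and 14.7 CPM with DDP_apoEV (log2 fold change −2.27, SE 0.142, adjusted p = 4.87e-10), and coagulation factor F5 changed by −2.09. Protease-activated receptors rose, the thrombin receptor F2R from 25.2, 31.3 and 26.1 to 53.3, 53.6 and 45.9 CPM (log2 fold change 0.89, SE 0.0961, adjusted p = 1.82e-08), and the related F2RL1 by 0.64. In the list of 25 G protein-coupled receptors and regulators 7 rose and 3 fell, the adenosine receptor ADORA2B (−0.70) and ADGRL2 (−0.89) among the latter. Hippo pathway targets fell in 7 of 21 cases and rose in 2. ANKRD1 went from 56.5, 53.8 and 40.9 to 11.9, 12.9 and 14.4 CPM (log2 fold change −1.95, SE 0.133, adjusted p = 9.27e-12), and CCN2, a matricellular protein, from 34.6, 34.9 and 33.3 to 14.1, 14.1 and 14.8 CPM (log2 fold change −1.26, SE 0.113, adjusted p = 3.63e-10). Both genes had tight treated libraries below all controls.

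Secreted hormones of stress and low oxygen did not move together. GDF15, an appetite-suppressing stress cytokine, measured 154, 128 and 158 CPM in control and 95.4, 89 and 75.6 CPM with DDP_apoEV (log2 fold change −0.76, SE 0.0891, adjusted p = 2.53e-07), and the growth inhibitor DDIT4 changed by −0.59. The stanniocalcins rose, STC1 from 5.27, 7.46 and 5.83 to 17.7, 16.3 and 16.9 CPM (1.46) and STC2 by 1.0, as did the lipase inhibitor ANGPTL4 (1.74). In the prostaglandin pathway 2 of 12 tested genes rose and 2 fell, with 1 rise in each fit without 1 library except that without DDP_apoEV replicate 3. The phospholipase PLA2G4A changed by −0.81, the thromboxane synthase TBXAS1 by −0.42 and the prostaglandin E synthase PTGES by 0.57. Of 30 tested genes for the uptake of apoptotic particles 7 fell and 6 rose, with a median of 0.10. The number that fell was 3 without DDP_apoEV replicate 1 and 4 without DDP_apoEV replicate 3. Among the rises were ABCA1 and AXL, described above. GULP1, an adaptor for engulfing apoptotic cells, went from 137, 149 and 137 to 79.3, 90.3 and 84.4 CPM (log2 fold change −0.74, SE 0.0796, adjusted p = 1.81e-08), and ELMO1, which drives the engulfing cytoskeleton, changed by −1.39.

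Neuronal and architectural genes changed in both directions. SEMA3B, a repulsive guidance ligand, changed by −1.05, its receptor relative PLXND1 by −0.64 and the ephrin receptor EPHB2 by 1.03, in a list where 6 of 30 rose and 8 fell. The synaptic vesicle gene SYT1 changed by −0.67 and the cell adhesion gene CNTN1 went from 499, 545 and 518 to 248, 280.4 and 287 CPM (log2 fold change −0.94, SE 0.0755, adjusted p = 3.28e-11). Of 42 tested chromatin regulators 5 rose and 2 fell, so 16.7% were called, near the 15.5% of all tested genes. Chromatin architectural proteins HMGA1 (0.44) and HMGA2 (0.55) and the polycomb gene PHC2 (0.68) rose. Of 28 tested microtubule genes 5 rose, 1 fell and 22 were not called (21.4% called). The microtubule genes STMN3 (1.13) and TUBB3 (0.74) rose, while TPPP3 fell (−2.40). The largest falls among genes passing every criterion included CEACAM6, a surface glycoprotein with close relatives, from 797, 852 and 898 to 84.2, 88.9 and 121 CPM, the neuropeptide NTS (−3.56) and FGG of fibrinogen (−2.96). Largest rises included the transporter SLC16A6 (2.76), the neuronal pentraxin NPTX1 (2.54), ABCA1 and IL11. Of the most abundant genes the keratin KRT8 went from 6767, 6121 and 6538 to 3421, 3829 and 3691 CPM (−0.83), and KRT18, its partner, changed by −0.83. The surface receptor DCBLD2 rose from 927, 1030.2 and 869 to 1347, 1349 and 1375 CPM (0.53).

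Genes called higher were unevenly spread over chromosomes. On chromosome 9, chosen for description after the values were seen, 96 of 689 tested genes (13.9%) were higher and 44 (6.4%) lower, against 6.9% and 8.4% on the rest of the genome. Of its 491 genes with a mean log2 CPM of at least 2 over the 6 libraries, 68.8% had a log2 fold change above 0, with a median of 0.11, against 50.8% and 0.004 elsewhere. The chromosome's median deviation from the control mean was 0.12, 0.11 and 0.10 in the 3 DDP_apoEV libraries, between −0.01 and 0.013 in the controls, and between 0.059 and 0.071 in the STS_apoEV libraries. All 3 treated libraries thus stood apart by a similar and small amount. When the genome was read in 528 overlapping windows of 40 neighbouring expressed genes, 10 of the 14 windows with the highest medians lay on chromosome 9. The highest covered chr9:129608884-135907546, in hg38 as deposited, where 35 of 40 genes were above 0, 17 were called higher and 2 lower, and the median was 0.25. Second came a window of chromosome 19 at chr19:55641062-58457833, with a median of 0.24, 10 genes called higher and none lower. The shift was uneven along chromosome 9. Its windows starting at base 77177445 or later had medians of 0.109 to 0.251, and those starting before it −0.101 to 0.102. The lowest of them, chr9:38392702-76651203, had 1 gene called higher and 8 lower. Neighbouring windows share genes, and the cause of this pattern was not tested. Genes named above that lie on chromosome 9 and rose include TRAF1, TRAF2, TNC, TPM2, B4GALT1, PSAT1, PSMB7, PTGES and ABCA1, while GALNT12, GSN and LCN2, which lie there too, fell. In the nuclear pore list 3 of 31 genes (9.7%) rose and none fell, near the 7.16% of all tested genes that were higher. Of these, NUP188 (0.51) and NUP214 (0.50) lie in or beside that highest window. Of the 35 tested genes of the mitochondrial genome 10 were higher and none lower. Those higher included 7 of its 20 tested transfer RNA genes, and neither of its 2 ribosomal RNA genes was called. MT-ND5 (0.47), MT-ND6 (0.46) and MT-ND1 (0.40) were higher too, while the most abundant, MT-CO1 (−0.10), was not called.

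**Figure D4:**
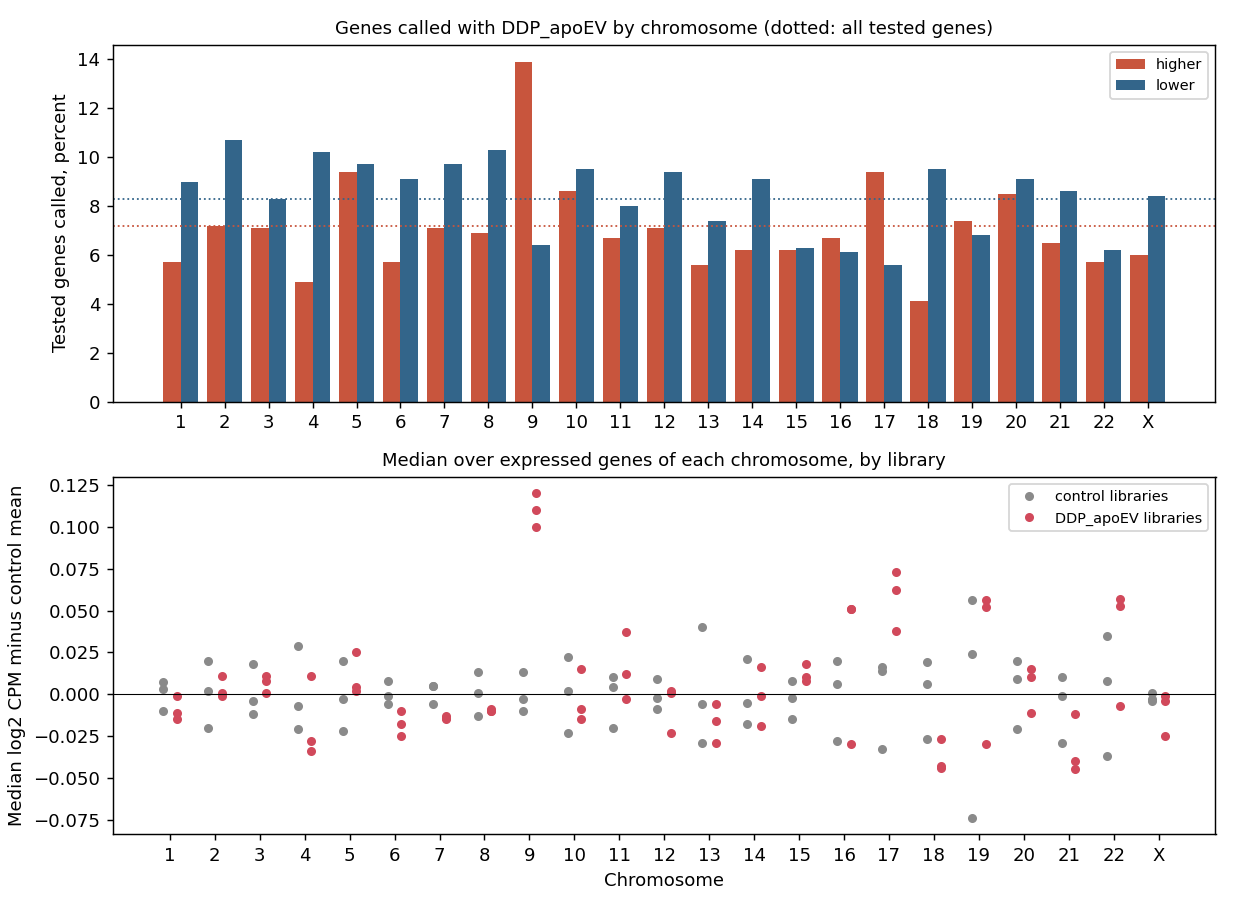
Top, the percentage of tested genes called higher (red) or lower (blue) with DDP_apoEV on each chromosome, with dotted lines at the shares of all tested genes. Bottom, for each library, the median over the expressed genes of a chromosome of log2 CPM minus the control mean (control grey, DDP_apoEV red), where chromosome 9 has its 3 DDP_apoEV libraries at 0.10 to 0.12.

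The direct contrast of the 2 vesicle types, which uses no control library, showed which of these changes differed between them. At an adjusted p under 0.05, 6721 genes (39.7%) differed between STS_apoEV and DDP_apoEV. Of the 46 ribosome biogenesis genes 40 were lower in STS_apoEV and none higher, and of the 40 DNA replication genes 38 were lower and none higher. NOLC1 was lower in STS_apoEV by 1.13 (adjusted p = 1.03e-13) and MCM10 by 1.73 (adjusted p = 7.39e-17), both on the log2 scale. Of 15 mucin and secretory genes 14 were higher in STS_apoEV, as were 14 of the 26 epithelial factors. ELF3 averaged 238 CPM there, 1.33 above DDP_apoEV (adjusted p = 2.67e-15). Other genes did not differ past the threshold. The differences were 0.07 for ITGA2 (adjusted p = 0.587), −0.15 for FGFR4 (adjusted p = 0.308), 0.08 for SMOX (adjusted p = 0.512) and −0.09 for BMAL1 (adjusted p = 0.639), which does not show that the 2 vesicle types acted alike on them.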

How the data were processed

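RNA-seq of 9 A549 libraries was deposited as a table of whole-number read counts and a separate table of FPKM (a level per gene length). Both give values per gene for each library. The submitters' processing notes name HISAT2 2.0.5, StringTie 1.3.3b, featureCounts 1.5.0-p3 and hg38. Counts deposited by the authors were used as they stood, and the FPKM values deposited by the authors only in alternatives. The labels do not state that the kit kept strand, so genes that overlap on opposite strands cannot be told apart. Of 62257 rows, 705 had no annotated gene. Rows of either kind that failed edgeR's filterByExpr were left out, leaving 16947.

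Tests used edgeR 4.0.16 in R 4.3.3 (TMM scaling, robust quasi-likelihood test over all 9 libraries, Benjamini-Hochberg adjusted p under 0.05). Levels are CPM on the effective library totals, except in the sums of cell type markers, which use the total counts. SE is the size of the log2 fold change divided by the square root of F. The common biological coefficient of variation was 0.0992. Alternatives used limma 3.58.1 and DESeq2 1.42.0, limma on the deposited log2(FPKM + 1) scale among them, and left out each library in turn. The fit was tested on simulated counts. Control, DDP_apoEV and STS_apoEV libraries were grouped by title.

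Genes were named by a rule: those with a mean log2 CPM of at least 1, no overlap between groups and a call in every fit without 1 library, by size of change, by CPM gained or lost, by smallest p within each list, or by smallest p below a 2-fold change, besides abundant genes not called and a few fixed genes. Not all that met it are printed, and some genes are not reported here. The members, the gene lists, 8 lists added later and further named examples were chosen with earlier results of these data known. Promoter sequences and their motifs came from RefSeq tables through Python 3.11.15.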

Additional observations from a re-analysis of the deposited data

Results flagged for a closer look

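Against the same controls, 524 genes were called in opposite directions with the 2 vesicle types and also differed between them by the direct test (edgeR, adjusted p under 0.05). Of these, 255 were higher and 269 lower with DDP_apoEV. The contrasts against control share their control libraries, so the direct difference, which uses none of them, is the value given here. The ferroxidase gene CP was higher in STS_apoEV than in DDP_apoEV by 4.09 on the log2 scale, SMIM14 by 1.24 and AKR1C1, whose reads may be shared with near-identical relatives, by 0.89. NPTX1, a neuronal pentraxin, differed by −3.54, being higher with DDP_apoEV.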

How the results depend on the processing

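The number of genes called was 1841 to 2236 without 1 library (lowest without DDP_apoEV replicate 1), of which 787 to 1028 were higher, 1030 to 1208 lower and 483 to 612 changed 2-fold or more. In each of these fits 1751 to 2060 calls were shared with the 2623. The direct contrast of the vesicle types then gave 5856 to 6235 calls against 6721. Limma on FPKM tested 12647 genes, those with a mean FPKM of at least 1. On log2(FPKM + 1) it called 1617, 808 higher and 809 lower, 123 of them 2-fold or more. On log2(FPKM + 0.1) it called 1638, with 825 lower and 232 of 2-fold or more. The added constant enters these fold changes, so their 2-fold counts are not like for like with those of the count fits. On log2(FPKM + 1) without a filter, over 37966 genes, it called 787, with 345 higher, 442 lower, 121 of 2-fold or more and 4352 between the vesicle types. DESeq2 called 2353 genes. Of the 251 genes with printed changes, 56 lost their call without that filter, and at most 4 in any other alternative. MKI67, not called in any of these settings, was −0.004 with upper-quartile factors, −0.002 with the CPM filter, −0.001 with limma-voom and −0.078 to 0.058 without 1 library. SLC30A1 was −0.025 to 0.168 without 1 library. The cause of these differences was not tested.

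Libraries of the same number hardly deviated together (correlations 0.055, −0.006 and 0.008), against −0.047 to 0.039 for libraries of unlike number. These values show no clear pairing by number, and with 3 libraries a group they cannot exclude it. With a replicate block 2359 genes were called, 1060 higher, 1299 lower and 551 changed 2-fold or more, and 6429 differed between the vesicle types. Counting noise limits genes of few reads, and 3 libraries a group limit all small changes.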
